A study of Mus musculus with 3 samples.

Results

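A set of 10 innate sensing genes was followed through 3 single-cell RNA libraries of mouse brain. They are the Toll-like receptor genes Tlr2, Tlr4 and Tlr7, the co-receptor gene Cd14, the adaptor gene Myd88, the inflammasome genes Nlrp3, Pycard and Casp1, and 2 genes whose products caspase-1 cleaves, Il18 and Gsdmd. They were taken by name, and each of the 10 matched 1 of the 55357 genes listed in the count matrices. All 3 libraries came from the left perilesional cerebral tissue of male C57BL/6 mice aged 6 to 8 weeks, with 1 library per group. The first group was sham, the second received PBS for 3 days after traumatic brain injury (TBI+PBS), and the third received IL-25, a cytokine known for type 2 immunity, at 1 µg per mouse within 30 min of injury and then daily for 3 days (TBI+IL-25). The sources used here do not state how many animals went into each library. With 1 library per group no difference between groups has a replicate check, so no test of condition was made, and group, animal, dissection and library cannot be told apart.

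Toll-like receptors recognise microbial products and material released by damaged cells, and most of them signal through MyD88 to NF-kappa-B and the cytokine genes it drives. The NLRP3 inflammasome is a second layer: the sensor NLRP3 recruits the adaptor ASC, encoded by Pycard, which gathers and activates caspase-1. Caspase-1 then matures interleukin-1 beta and interleukin-18 and cuts gasdermin D into a pore-forming fragment. In brain these genes are known chiefly from microglia, the resident macrophages, while astrocytes are a known source of interleukin-18 precursor in some settings. All values below are transcripts, and say nothing of cleavage or secretion.

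After filtering, the sham library held 8710 cells, the TBI+PBS library 10299 and the TBI+IL-25 library 13532, with medians of 4111, 4666 and 3841 unique molecular identifiers (UMIs, counted transcripts) per cell. Cells were clustered and each cluster was named from marker lists. Microglia-like cells made up 57.3%, 44.6% and 40.9% of cells in sham, TBI+PBS and TBI+IL-25, and astrocyte-like cells 37.7%, 43.9% and 49.4%. All 12 microglia markers were detected in the microglia-like class of every library, with a summed level of 45645, 38392 and 30974 counts per 1000000 UMIs of the class (CPM). In the same class the monocyte marker Ccr2 stood at 4.85, 2.47 and 1.36 CPM and Ly6c2 at 0, 0.04 and 0.39 CPM. The libraries shared 24 to 39 cell barcodes pair by pair. Every interval below is a 95% interval that covers counting error only.

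Promoter sequence is shown for Tlr2, Pycard, Myd88 and Il18, 4 members whose differences lead the results below. The 250 bases before each transcription start were taken from RefSeq on build GRCm38.p6, which is not the GRCm39 build of the counts, and 6 of the 10 members had an entry. Tlr4, Tlr7, Cd14 and Gsdmd had none. Capitals mark matches on either strand to the kappa-B consensus (the NF-kappa-B motif), TGANTCA (AP-1), the ISRE (the interferon-stimulated response element) or TTGCNNNAA (C/EBP). The sequences run 5′ to 3′ on the strand of the gene.
Tlr2, chr3:83841609-83841858, minus strand: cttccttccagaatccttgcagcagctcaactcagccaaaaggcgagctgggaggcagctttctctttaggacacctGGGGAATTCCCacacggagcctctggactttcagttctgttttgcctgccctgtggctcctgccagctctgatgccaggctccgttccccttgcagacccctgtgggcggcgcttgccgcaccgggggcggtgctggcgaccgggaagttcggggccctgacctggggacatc
Pycard, chr7:127993868-127994117, minus strand: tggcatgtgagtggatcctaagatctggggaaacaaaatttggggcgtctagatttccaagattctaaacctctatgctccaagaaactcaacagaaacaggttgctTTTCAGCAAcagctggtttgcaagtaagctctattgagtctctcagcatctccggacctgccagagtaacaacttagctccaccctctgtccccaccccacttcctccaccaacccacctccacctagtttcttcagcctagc
Myd88, chr9:119340019-119340268, minus strand: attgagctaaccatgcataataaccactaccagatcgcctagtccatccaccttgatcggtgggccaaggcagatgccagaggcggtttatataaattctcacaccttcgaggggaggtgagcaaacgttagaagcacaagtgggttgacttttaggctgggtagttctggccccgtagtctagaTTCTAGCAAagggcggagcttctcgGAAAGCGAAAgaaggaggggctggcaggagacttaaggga
Il18, chr9:50554450-50554699, plus strand: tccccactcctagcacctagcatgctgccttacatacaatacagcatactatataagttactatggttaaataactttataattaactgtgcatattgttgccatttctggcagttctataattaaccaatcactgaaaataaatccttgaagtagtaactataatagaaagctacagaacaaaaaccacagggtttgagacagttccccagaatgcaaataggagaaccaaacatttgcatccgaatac
In Tlr2, overlapping kappa-B matches, GGGGAATTCC and GGGAATTCCC, begin at positions -173 and -172, counted so that -1 is the base before the start. Pycard holds 1 C/EBP match at -143, TTTCAGCAA. Myd88 holds an ISRE match, GAAAGCGAAA, at -40 and a C/EBP match, TTCTAGCAA, at -65. Il18 and Casp1 hold none of the 4 motifs in this window, and of the pair of Nlrp3 entries 1 holds a kappa-B match, GGGAACCCCC, at -186. Among 32851 mouse promoter windows of this length, 7.25% hold a kappa-B match, 8.29% a C/EBP match, 6.75% an AP-1 match and 2.98% an ISRE match, so a match describes the letters and does not show binding.

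Of the 10 members, 9 had most of their UMIs in microglia-like cells in every library, and Il18 did not. Microglia-like cells held 90.0 to 97.1% of the sham UMIs of each of the 9. Il18 had only 19.8% of its sham UMIs there and 77.3% in astrocyte-like cells, where its level was 278 CPM against 53.8 CPM in microglia-like cells. UMIs are counted at the 3′ end, so levels of different genes do not scale with transcript length. How well each transcript is caught and counted can still differ between genes, so the order below is one of counted UMIs. In sham microglia-like cells Cd14 stood highest at 477 CPM, then Pycard at 316, Tlr7 at 123, Gsdmd at 105 and Tlr2 at 87.2 CPM. Nlrp3 and Il18 followed at 54.5 and 53.8 CPM, then Tlr4 at 52.2, and the intervals of these 3 overlapped. Myd88 and Casp1 were lowest at 42.3 and 39.5 CPM, also with overlapping intervals.

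Free RNA in droplets puts some UMIs of abundant microglial genes into other cells, so every level in astrocyte-like cells was read against the 12 microglia markers measured there. Those markers stood at a median of 3.15%, 2.89% and 1.94% of their microglia level in sham, TBI+PBS and TBI+IL-25. Tlr7 (2.38%, 3.35% and 1.51%), Gsdmd (3.17%, 3.23% and 2.68%), Cd14 (2.73%, 2.42% and 2.53%) and Nlrp3 (1.74%, 2.54% and 2.38%) lay near that median in astrocyte-like cells, so over the class they are not read as expression there. Pycard (4.81%, 3.86% and 2.60%), Tlr2 (5.36%, 3.54% and 1.77%) and Casp1 (7.04%, 5.40% and 5.48%) lay within the range of the single markers, whose highest, Sall1, reached 11.1%, 27.7% and 37.5%. Sall1 rose from sham to TBI+IL-25 while the marker median fell. A place below Sall1 thus does not tell whether a level is free RNA. Il18, at 518%, 497% and 266%, was far above every marker in all 3 libraries. Myd88, at 11.4%, 32.7% and 62.2%, was above every marker in each library. In sham, from 71 UMIs, it only barely passed Sall1 at 11.1%, so sham does not set them apart. Tlr4, at 5.46%, 10.2% and 21.2%, was above the median but below Sall1.

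**Figure D1:**
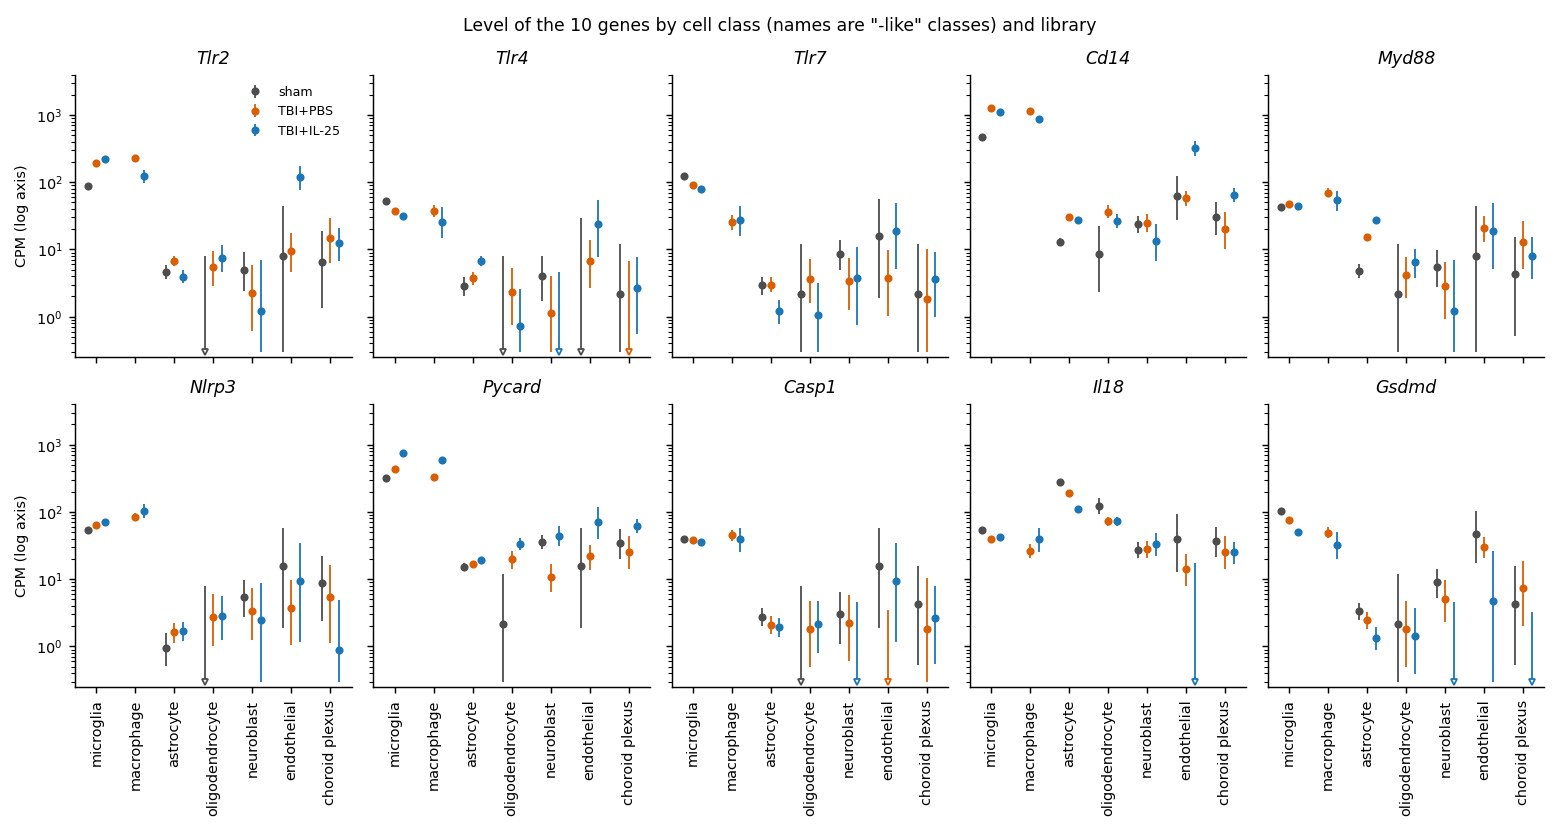
Levels of the 10 genes in CPM (log axis) by cell class and library, with 95% counting intervals and 1 library per group. Open triangles at the foot of the axis mark groups with 0 UMIs. In microglia-like cells Cd14 and Pycard are the highest in every library, while Il18 is higher in astrocyte-like cells (278, 195 and 112 CPM) than in microglia-like cells (53.8, 39.2 and 42.2 CPM).

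**Figure D2:**
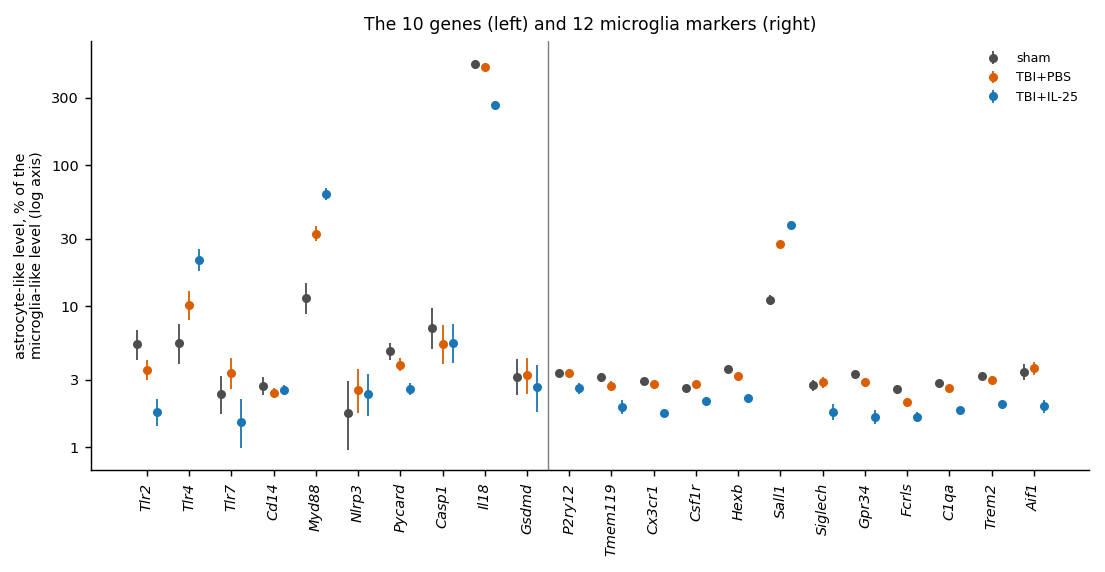
Level of each gene in astrocyte-like cells as a percent of its level in microglia-like cells (log axis), by library, beside the microglia markers measured the same way. Il18 lies above 100% in every library, Myd88 goes from 11.4% in sham to 32.7% and 62.2% in the injured libraries, and Cd14, Tlr7, Nlrp3 and Gsdmd sit near the marker median.

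Among the microglial receptors, Tlr2 and Cd14 were higher in both injured libraries than in sham, while Tlr4 and Tlr7 were lower. A difference was called where the ratio of CPM reached 1.5-fold in either direction with at least 50 UMIs over both libraries. The 3 comparisons share libraries pairwise and are not independent. For TBI+PBS against sham 2 of the 10 members, Tlr2 and Cd14, were called higher and 0 lower, where 12.8% and 18.8% of all measured genes were called. For TBI+IL-25 against TBI+PBS 1 member, Pycard, was called higher (9.80% of genes) and 1, Gsdmd, lower (14.3%). For TBI+IL-25 against sham 3 members, Tlr2, Cd14 and Pycard, were called higher (17.6%) and 3, Tlr4, Tlr7 and Gsdmd, lower (30.2%). The members' median log2 ratio was 0.06, -0.11 and -0.05 in the 3 comparisons, beside -0.15, -0.08 and -0.21 for all genes. The counts are thus near those of all genes, and the account below is of single genes.

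**Figure D3:**
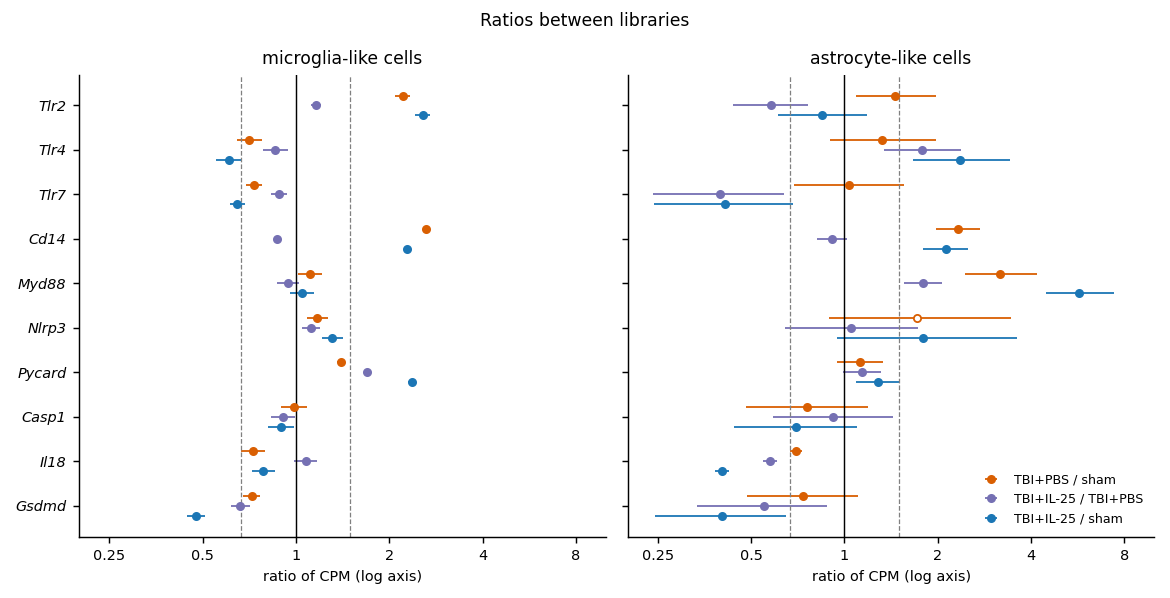
Ratio of CPM between libraries for each gene (log axis) in microglia-like and astrocyte-like cells, with 95% counting intervals and dashed lines at the 1.5-fold limits. Open points had under 50 UMIs. In microglia-like cells Tlr2 and Cd14 lie above 2 in both comparisons with sham, and Gsdmd lies below 1 in all 3 comparisons.

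Tlr2, the receptor for bacterial lipoproteins, stood at 87.2 CPM (1710 UMIs) in sham, 193 CPM (4852 UMIs) in TBI+PBS and 224 CPM (6245 UMIs) in TBI+IL-25 microglia-like cells. The ratio was 2.21 (2.09 to 2.34) for TBI+PBS against sham, 2.56 (2.43 to 2.71) for TBI+IL-25 against sham and 1.16 between the injured libraries. When every cell was thinned to 2000 UMIs, 16.0%, 24.9% and 28.1% of microglia-like cells held a Tlr2 transcript, against 1.19%, 1.52% and 0.623% of astrocyte-like cells. The median depth before thinning was 3917, 4746.5 and 4730 UMIs in microglia-like cells and 4511, 4328 and 2957 in astrocyte-like cells. Sham was the low library for Tlr2 in microglia-like cells by level and by share of cells.

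The clusters that filled the microglia-like class differed between libraries, and Tlr2 differed more between clusters than between libraries within one. A cluster led by P2ry12, a homeostatic microglial receptor, held 88.6% of the sham class but 27.3% of the TBI+PBS class and 3.45% of the TBI+IL-25 class. A cluster led by Tnf, Ccl3 and Ccl4 held 14 sham cells, 9.82% of the TBI+PBS class and 34.0% of the TBI+IL-25 class. Such clusters, mostly of 1 or 2 libraries, may mark the library rather than a cell state. Tlr2 in the P2ry12 cluster was at 82.3, 97.7 and 86.1 CPM in sham, TBI+PBS and TBI+IL-25, and in the Tnf cluster at 357 and 295 CPM in the injured libraries. Within the 4 clusters with at least 100 cells in both libraries, the limit for every comparison within clusters, the TBI+PBS to sham ratio of Tlr2 was 1.11 to 1.61. In the cluster filled best by all 3 libraries, led by Klf4 and Hspa1b, it was 1.11 (0.907 to 1.36) and the TBI+IL-25 to sham ratio was 0.888 (0.719 to 1.10), both with intervals that include 1. Between the injured libraries Tlr2 was lower with IL-25 in 7 of 8 clusters, the exception being a cluster led by Spp1 and Lilr4b at 283 CPM in TBI+PBS and 496 CPM in TBI+IL-25, a ratio of 1.75 (1.58 to 1.94).

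Cd14, which hands lipopolysaccharide to the TLR4 complex, had the highest counted level of the members, with 477 CPM (9346 UMIs) in sham, 1252 (31482 UMIs) in TBI+PBS and 1090 (30466 UMIs) in TBI+IL-25 microglia-like cells. The ratio was 2.63 (2.57 to 2.69) for TBI+PBS against sham, 2.29 (2.24 to 2.34) for TBI+IL-25 against sham and 0.871 between the injured libraries. Thinned to 2000 UMIs, 56.4%, 73.8% and 69.5% of microglia-like cells held Cd14, against 1.84%, 4.81% and 3.83% of astrocyte-like cells. Cd14 was higher in TBI+PBS than in sham within all 4 clusters compared, by 1.46 to 1.80, with every interval above 1, where 2 of the 4 intervals of Tlr2 were. For TBI+IL-25 against sham the ratios within clusters were 1.06 to 1.26, with 2 of 4 intervals above 1, and Cd14 was called in none of them. Cd14 in the P2ry12 cluster was at 476, 695 and 504 CPM in the 3 libraries. Between the injured libraries it was lower with IL-25 in 7 of 8 clusters.

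The Spp1 cluster stood apart for Cd14, with 4028 CPM in TBI+PBS and 4649 CPM in TBI+IL-25 from 253 and 246 cells, and no sham cell. It held 5.51% and 4.45% of the class in the injured libraries. Its cells carried the monocyte marker Ccr2 at 2.04 and 1.18 CPM, beside 548 and 394 CPM in macrophage-like cells. Arg1, at 4.48 and 4.71 CPM, and Lyz2, at 323 and 271 CPM, were likewise far under the macrophage-like levels of 1755 and 1791 CPM and of 8714 and 6574 CPM. Mrc1 and Vim, by contrast, were above their class levels in TBI+PBS, at 66.8 CPM beside 14.7 in microglia-like and 169 in macrophage-like cells, and at 733 CPM beside 82.9 and 3038. In TBI+IL-25 Mrc1 was at 1.76 CPM and Vim at 245 CPM, beside 1.47 and 27.1 CPM in the class. P2ry12 was at 122 and 105 CPM in the cluster, beside 1505 and 892 in the class. Nlrp3 was at 98.1 and 164 CPM in this cluster, above its class level of 64.0 and 71.5. Without the cluster the Cd14 ratio of TBI+PBS to sham was 2.00 (1.95 to 2.04) and that of TBI+IL-25 to sham 1.80, so both calls held, as did those of Tlr2 at 2.10 and 2.36.

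Tlr4, the lipopolysaccharide receptor, was at 52.2 CPM (1023 UMIs) in sham, 36.9 (929 UMIs) in TBI+PBS and 31.7 (885 UMIs) in TBI+IL-25 microglia-like cells. Its ratio to sham was 0.708 (0.647 to 0.774) and 0.607 (0.554 to 0.665), and only the latter reached the fold. Tlr7, an endosomal receptor for single-stranded RNA, followed the same order with 123, 89.8 and 79.4 CPM, and ratios to sham of 0.732 (0.691 to 0.775) and 0.647 (0.611 to 0.686). With median-of-ratios size factors in place of CPM the TBI+IL-25 to sham ratios of Tlr4 and Tlr7 were 0.702 and 0.749, and neither was called. Within clusters Tlr7 was lower in both injured libraries than in sham in all 4 clusters compared. Tlr4 was lower in TBI+PBS than in sham in all 4 as well, with 1 of the 4 intervals below 1. For TBI+IL-25 against sham the clusters disagreed: the Tlr4 ratio was 1.46 (1.08 to 1.94) in the P2ry12 cluster, opposite to the class, 0.480 (0.302 to 0.779) in a cluster led by Ly86, and 0.922 and 0.873 in the other clusters compared, with intervals that include 1. Thus Tlr2 and Cd14 went one way and Tlr4 and Tlr7 the other at the class level, and cluster makeup moved with all of them.

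Myd88, the adaptor that Tlr2, Tlr4 and Tlr7 share, differed little in microglia-like cells, with 42.3, 46.9 and 44.2 CPM in sham, TBI+PBS and TBI+IL-25. The ratios were 1.11 (1.01 to 1.21), 0.941 and, for TBI+IL-25 against sham, 1.04. In the astrocyte-like class the same gene went from 4.81 CPM (71 UMIs) in sham to 15.3 CPM (321 UMIs) in TBI+PBS and 27.5 CPM (596 UMIs) in TBI+IL-25. The ratio was 3.19 (2.46 to 4.18) for TBI+PBS against sham, 1.79 (1.56 to 2.06) for TBI+IL-25 against TBI+PBS and 5.70 (4.45 to 7.40) for TBI+IL-25 against sham. Microglia-like cells held 90.0% of all Myd88 UMIs in sham and 64.0% in TBI+IL-25, while the astrocyte-like share was 7.71% and 30.9%. At 2000 UMIs per cell 0.807%, 2.65% and 4.74% of astrocyte-like cells held a Myd88 transcript.

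The Myd88 difference was as large in astrocyte-like cells with fewer than 10 UMIs of the microglia markers, Sall1 left out. These were 3161 of 3285 cells in sham, 4383 of 4522 in TBI+PBS and 6564 of 6688 in TBI+IL-25. In these cells the ratio of Myd88 was 3.69 (2.75 to 5.04) for TBI+PBS against sham and 6.91 (5.22 to 9.31) for TBI+IL-25 against sham. Astrocyte-like cells without Myd88 held a median of only 3, 2 and 1 such UMIs. The limit thus takes out cells rich in microglial RNA and cannot take out free RNA spread over the rest. The 12 microglia markers, Sall1 included, went the other way in the class, with a summed 1476, 1163 and 710 CPM. A subtraction of free RNA was among the alternatives tried. Where at least 50 UMIs were left, they gave Myd88 ratios to sham of 1.76 to 3.98 in TBI+PBS and 4.74 to 7.57 in TBI+IL-25. Apart from that subtraction, the part of free RNA in the Myd88 values was not tested. The gene overlaps Acaa1a on the opposite strand, and the sources used here do not state whether counting used strand. Acaa1a was at 113, 91.3 and 59.0 CPM in astrocyte-like cells, in the order opposite to Myd88.

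Myd88 differed between astrocyte-like clusters. It was at 33.3 CPM (406 UMIs) in TBI+IL-25 in a cluster led by Flnc and Lif, whose 49 TBI+PBS cells held 10 UMIs, and at 28.8 and 39.1 CPM in the injured libraries in a cluster led by Lcn2, a marker of reactive astrocytes. In a cluster led by Hapln1, filled by all libraries, it was at 4.9, 9.3 and 9.7 CPM. In a cluster led by Agt, angiotensinogen, also filled by all libraries, it was at 5.0, 8.8 and 3.7 CPM. The TBI+PBS to sham ratio was 1.76 (0.997 to 3.22) in the Agt cluster and 1.89 (1.05 to 3.27) in the Hapln1 cluster, both smaller than the ratio of the class. Between the injured libraries Myd88 was higher with IL-25 in 5 of 6 clusters compared, with 1 interval above 1. The exception was the Agt cluster, at 0.417 (0.168 to 0.902) from 8 and 40 UMIs, opposite to the class. The Flnc cluster held 41.0% of the TBI+IL-25 class, 1.08% of the TBI+PBS class and 1 sham cell, so in the astrocyte-like class IL-25 treatment, this cluster and the library cannot be told apart.

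At the class level Tlr4 showed opposite directions in the 2 glial classes. In astrocyte-like cells it was at 2.85 CPM (42 UMIs) in sham, 3.77 (79 UMIs) in TBI+PBS and 6.73 (146 UMIs) in TBI+IL-25. The ratio of TBI+IL-25 to sham was 2.36 (1.67 to 3.41) there and 0.607 in microglia-like cells. In cells with fewer than 10 microglia-marker UMIs it was 3.34 (2.18 to 5.29). The level was low, with a Tlr4 transcript in 0.576%, 0.612% and 0.980% of cells thinned to 2000 UMIs. In the Lcn2 cluster Tlr4 was at 10.01 and 13.04 CPM (25 UMIs each) in the injured libraries. The Flnc cluster, with 1 sham cell, held 86 of the 146 TBI+IL-25 UMIs. Within the 4 astrocyte-like clusters compared, the TBI+IL-25 to sham ratio was 1.16 to 4.63, with 0 intervals above 1. Between the injured libraries 0 of 5 intervals lay above 1.

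**Figure D4:**
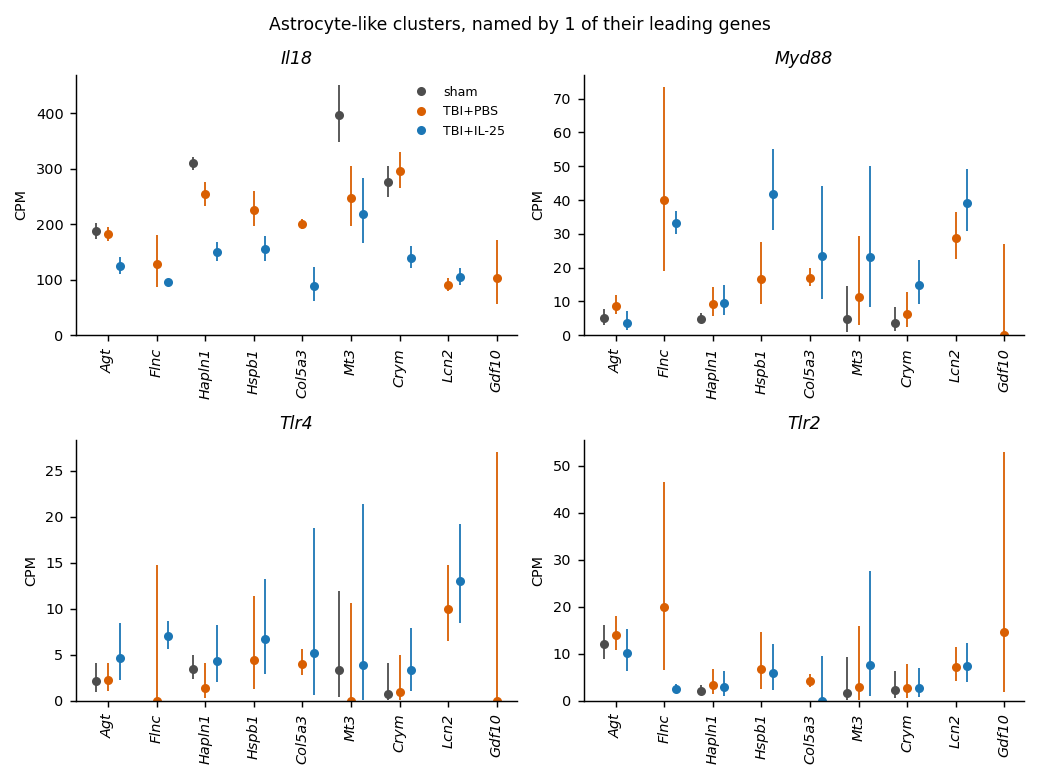
CPM of Il18, Myd88, Tlr4 and Tlr2 in each astrocyte-like cluster by library, with 95% counting intervals, for groups of at least 20 cells. The highest Il18 level is the 397 CPM of sham in the Mt3 cluster, and Myd88 is at 41.9 CPM (50 UMIs) in the Hspb1 cluster and 39.1 CPM (75 UMIs) in the Lcn2 cluster of TBI+IL-25. The Mt3 and Hspb1 clusters are shallow, with medians of 794 and 820 UMIs per cell. In the sham cells of the Mt3 cluster the microglia markers, Sall1 left out, stood at a median of 5.71% of their microglia level.

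The inflammasome adaptor Pycard was the 1 member called higher with IL-25 than with PBS in microglia-like cells. In microglia-like cells it stood at 316 CPM (6196 UMIs) in sham, 442 (11126 UMIs) in TBI+PBS and 749 (20925 UMIs) in TBI+IL-25. The ratio was 1.40 (1.36 to 1.44) for TBI+PBS against sham, 1.69 (1.65 to 1.73) for TBI+IL-25 against TBI+PBS and 2.37 (2.30 to 2.44) for TBI+IL-25 against sham. At 2000 UMIs per cell 45.9%, 56.4% and 73.8% of microglia-like cells held the transcript, against 3.00%, 3.09% and 2.98% of astrocyte-like cells. The 3 libraries were thus in the order sham, TBI+PBS, TBI+IL-25 by level and by share of cells.

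Unlike Tlr2, Pycard kept this order within clusters. It was higher with IL-25 than with PBS in all 8 microglia-like clusters that could be compared, by 1.33 to 1.85, each interval above 1. In the P2ry12 cluster it was at 316, 397 and 683 CPM in sham, TBI+PBS and TBI+IL-25, and in the Klf4 cluster at 317, 415 and 736 CPM. The lowest ratio was in the Spp1 cluster, 1.33 (1.20 to 1.47), at 328 and 435 CPM. In the 248 macrophage-like cells of TBI+PBS and the 106 of TBI+IL-25, Pycard was at 330 and 590 CPM, a ratio of 1.79 (1.58 to 2.03). It was the 1 member of 10 called higher there, where 8.80% of genes were. Sham held 10 macrophage-like cells and was not compared.

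**Figure D5:**
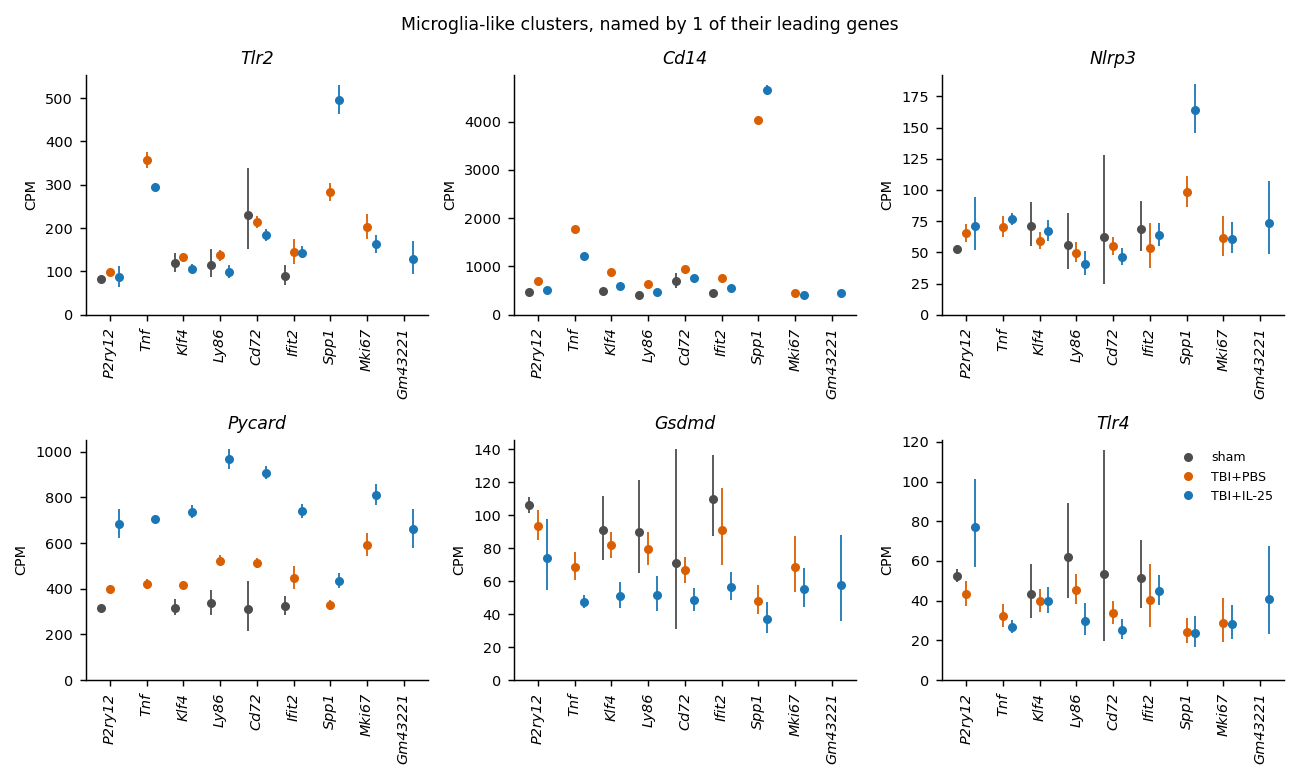
CPM of Tlr2, Cd14, Nlrp3, Pycard, Gsdmd and Tlr4 in each microglia-like cluster by library, with 95% counting intervals, for groups of at least 20 cells. Pycard is higher with IL-25 than with PBS in all 8 clusters compared and Gsdmd lower in all 8, while Tlr2 and Cd14 vary most from cluster to cluster, with Cd14 at 4028 and 4649 CPM in the Spp1 cluster.

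The sensor gene Nlrp3 stood at 54.5, 64.0 and 71.5 CPM in sham, TBI+PBS and TBI+IL-25 microglia-like cells, with ratios to sham of 1.17 (1.09 to 1.27) and 1.31 (1.22 to 1.41), under the fold used for a call. With median-of-ratios size factors the latter was 1.52. Casp1, the protease gene, was at 39.5, 38.9 and 35.3 CPM, and its TBI+PBS to sham ratio of 0.986 (0.896 to 1.09) included 1. At 2000 UMIs per cell Nlrp3, Pycard and Casp1 were found together in 22 of 4366 sham cells, 22 of 4280 TBI+PBS cells and 30 of 5088 TBI+IL-25 cells, 0.504%, 0.514% and 0.590%. At this depth most cells that express a gene near 50 CPM show no transcript of it, so these shares describe detection and not the share of cells that express all 3 genes.

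Il1b, the other caspase-1 cytokine gene and not a member of the set, was at 9.59, 95.8 and 184 CPM in the same cells, a ratio of 9.98 for TBI+PBS against sham and 1.92 for TBI+IL-25 against TBI+PBS. Thinned cells with an Nlrp3 transcript held an Il1b transcript in 18.1% of cases (15.2 to 21.3) in TBI+IL-25, against 13.2% (12.2 to 14.2) of cells without. The corresponding shares were 8.86% and 7.16% in TBI+PBS, and 1.58% and 0.841% in sham. Cd14 was found in 75.0% of TBI+IL-25 cells with a Tlr2 transcript and 67.3% without, and in 57.6% and 56.2% in sham. The other pairs taken differed less in TBI+IL-25. Cd14 was in 65.8% of cells with Tlr4 and 69.7% without, and Tlr7 in 13.6% with Tlr2 and 14.5% without. With and without Nlrp3, Cd14 was in 71.6% and 69.2% of cells and Tlr2 in 30.3% and 27.8%. With and without Pycard, Casp1 was in 7.24% and 6.54% and Il18 in 7.93% and 7.66%.

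Gsdmd, which encodes the pore-forming substrate of caspase-1, went opposite to Pycard. It was at 105 CPM (2055 UMIs) in sham, 75.5 (1899 UMIs) in TBI+PBS and 49.9 (1395 UMIs) in TBI+IL-25 microglia-like cells. The ratio was 0.720 (0.676 to 0.767) for TBI+PBS against sham, 0.661 (0.617 to 0.709) for TBI+IL-25 against TBI+PBS and 0.476 (0.445 to 0.510) for TBI+IL-25 against sham. The share of thinned cells with the transcript was 19.9%, 15.1% and 9.81%. Gsdmd was lower with IL-25 than with PBS in all 8 clusters, at 0.620 to 0.805, with 5 of the 8 intervals below 1. Against sham, the TBI+IL-25 ratio was 0.514 to 0.697 within the 4 clusters compared, every interval below 1. For TBI+PBS it was 0.828 to 0.900, nearer to 1 than over the class, with 1 of the 4 intervals below 1. The call between the injured libraries lay close to the fold and was lost with median-of-ratios size factors. In macrophage-like cells Gsdmd was at 49.4 and 32.5 CPM in TBI+PBS and TBI+IL-25, a ratio of 0.659 (0.389 to 1.06), and it was called lower with Tlr2, at 0.536 (0.416 to 0.683), where 18.2% of genes were.

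Il18 was an astrocyte-like transcript, and its level there was lower in the injured libraries. It stood at 278 CPM (4107 UMIs) in sham, 195 (4076 UMIs) in TBI+PBS and 112 (2435 UMIs) in TBI+IL-25. The ratio was 0.699 (0.670 to 0.731) for TBI+PBS against sham, 0.576 (0.547 to 0.606) for TBI+IL-25 against TBI+PBS and 0.403 (0.383 to 0.424) for TBI+IL-25 against sham. At 2000 UMIs per cell 38.1%, 31.2% and 19.7% of astrocyte-like cells held Il18, against 10.2%, 8.18% and 7.86% of microglia-like cells. Cells with fewer than 10 microglia-marker UMIs gave ratios of 0.705, 0.572 and 0.403. The Il18 gene overlaps Bco2 and Tex12 on the opposite strand, at 16.6, 15.0 and 6.54 CPM and 2.17, 1.24 and 1.06 CPM in astrocyte-like cells, far under Il18.

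The difference between the injured libraries was also seen within most astrocyte-like clusters. Il18 was lower with IL-25 than with PBS in 5 of 6 clusters, at 255 and 151 CPM in the Hapln1 cluster, 296 and 140 in a cluster led by Crym, and 182 and 125 in the Agt cluster. The exception was the Lcn2 cluster, at 91.3 and 105 CPM, a ratio of 1.15, where Il18 was low in both libraries. The TBI+PBS to sham ratio was nearer to 1 than over the class in the Agt cluster (0.971), the Crym cluster (1.07) and the Hapln1 cluster (0.822). It was further from 1, at 0.622, in a cluster led by Pantr1 and Mt3, whose cells were shallow, with a median of 794 UMIs. Between TBI+IL-25 and sham the Il18 ratio within the 4 clusters was 0.487 to 0.667, every interval below 1. In the Agt cluster, where it was 0.667 against sham and 0.687 against TBI+PBS, neither difference reached the fold. A cluster led by Col5a3, with 27.8% of the TBI+PBS class and no sham cell, had Il18 at 201 CPM in TBI+PBS. In the Flnc cluster of TBI+IL-25 it was at 95.3 CPM. Oligodendrocyte-like cells held Il18 at 124, 72.5 and 72.5 CPM from 57, 158 and 202 UMIs, the second highest class in every library. In microglia-like cells Il18 was lower in TBI+PBS than in sham, at 39.2 against 53.8 CPM, a ratio of 0.728 (0.667 to 0.795) that was not called. There the overlapping Bco2 was at 35.8, 23.9 and 15.0 CPM in the 3 libraries, not far under Il18 in sham. Strand use is not stated, so the part of Bco2 in the microglia-like Il18 counts is not known.

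Counts of called members in astrocyte-like cells were 2 higher (Cd14 and Myd88, beside 12.6% of genes) and 0 lower (14.5%) of 9 measured for TBI+PBS against sham. For TBI+IL-25 against TBI+PBS they were 2 higher (Tlr4 and Myd88, beside 9.09%) and 4 lower (Tlr2, Tlr7, Il18 and Gsdmd, beside 25.8%) of 10. For TBI+IL-25 against sham they were 4 higher (Tlr4, Cd14, Myd88 and Nlrp3, beside 18.6%) and 3 lower (Tlr7, Il18 and Gsdmd, beside 35.9%). Over the class, Il18 and Myd88 stood above every microglia marker, though Myd88 in sham only barely. The other called members stood below the highest one, Sall1. Of these, Cd14, Tlr7, Nlrp3 and Gsdmd lay near the marker median, so over the class their calls are not read as expression. For Tlr2 and Tlr4 a place below Sall1 does not tell whether the level is free RNA. By cluster, Tlr2 in the Agt cluster was at 13.8%, 7.29% and 4.51% of its microglia level in the 3 libraries, above the highest of 11 markers there, Sall1 left out, at 3.60%, 3.36% and 2.73%. Cd14 in the Lcn2 cluster of TBI+IL-25 was at 7.99%, above the highest of the same 11 at 5.79%. For Cd14, cells with fewer than 10 microglia-marker UMIs gave ratios to sham of 2.60 and 3.00, and the Lcn2 cluster held it at 62.1 and 87.1 CPM in the injured libraries. Over the alternatives tried, among them a subtraction of free RNA, the Cd14 ratio of TBI+IL-25 to sham ranged from 0.987 to 28.7. Between the injured libraries Cd14 ranged from 0.512 to 40.7 and Tlr2 from 0.212 to 0.716. Apart from that subtraction, the part of free RNA in these values was not tested.

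Macrophage-like cells of TBI+PBS held Tlr2 at 228 CPM, Nlrp3 at 83.5 and Myd88 at 69.8, each above microglia-like cells of the same library, but Tlr7 at 25.7 CPM was below the 89.8 CPM of microglia-like cells. In TBI+IL-25 the macrophage-like level of Tlr2 was 122 CPM, below the 224 CPM of microglia-like cells. Elsewhere outside glia the members were sparse. The 47 neutrophil-like cells of TBI+IL-25 had the highest Cd14, at 2101 CPM from 228 UMIs, beside 1090 in microglia-like cells, and the highest Nlrp3, at 240 CPM from 26 UMIs. Endothelial-like cells of TBI+IL-25 showed Tlr2 at 118 CPM, but all 25 UMIs lay in 4 cells, each with at least 10 microglia-marker UMIs. Endothelial-like Gsdmd was at 47.4, 30.3 and 4.73 CPM from 6, 32 and 1 UMIs. These groups are too small for more than the values.

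Genes with the most similar pattern to each member were found over 29 groups of a class in a library, by the correlation of log2 CPM, as a description. The groups share libraries, depth and, for microglial genes, free RNA. Cd14 was closest to the Fc receptor genes Fcgr3 (0.96) and Fcer1g (0.94), Tlr2 to Slc11a1 (0.93) and Aif1 (0.92), and Pycard to Bcl2a1b (0.94) and Plek (0.91). Tlr4 was closest to Igsf6 (0.90), Tlr7 to Vrk2 (0.87), Nlrp3 to Ccl9 (0.86), Casp1 to Myo1f (0.83) and Gsdmd to Cyth4 (0.90). Myd88 was closest to the transcription regulators Cebpb (0.90) and Nfkbiz (0.89), and its correlation with Pycard was 0.75 and with Cd14 0.72. For Il18 the closest, Dus2, reached only 0.74, and its correlation with each of the other 9 members was negative, from -0.38 to -0.09.

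Around the members, 87 further genes of the Toll-like receptor and inflammasome pathways were followed in 8 lists. In microglia-like cells 12 of 74 measured were called higher and 8 lower for TBI+PBS against sham, 19 and 4 of 75 for TBI+IL-25 against TBI+PBS, and 23 and 13 of 75 for TBI+IL-25 against sham, beside the shares of all genes given above. The receptor Cd36, a partner of TLR2, went from 0.102 CPM (2 UMIs) in sham to 15.7 CPM (394 UMIs) in TBI+PBS, and was 0.418 times as high in TBI+IL-25 as in TBI+PBS. Il1rn, the interleukin-1 receptor antagonist gene, was at 0.306 CPM in sham and 21.0 in TBI+PBS. Low ratios of TBI+PBS to sham were those of Casp12 at 0.303 and of the flagellin receptor gene Tlr5 at 0.368.

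Between the injured libraries, 4 of 11 inhibitor genes measured in microglia-like cells were called higher with IL-25 and 0 lower, beside 9.80% and 14.3% of all genes. The inhibitors were not alone in this. Cytokine and receptor genes had 4 of 5 called higher and 0 lower, and other inflammasome sensors and partners 5 of 13 and 1 lower. Caspases and pore formers had 3 of 6 higher and 1 lower, and Toll-like receptor partners 1 of 8 higher and 2 lower. Tnfaip3, which encodes the deubiquitinating enzyme A20, was at 70.8 and 169 CPM, a ratio of 2.39, and Nfkbia, the gene of I-kappa-B alpha, at 440 and 928 CPM, a ratio of 2.11. Casp4, the mouse caspase-11 gene, whose product cleaves gasdermin D in response to cytosolic lipopolysaccharide, was at 20.04 and 46.2 CPM, a ratio of 2.30. The opposite was seen for Unc93b1, the chaperone that takes TLR7 to endosomes, at 1378 and 752 CPM, a ratio of 0.545, and for Ninj1, which mediates membrane rupture after pore formation, at 137 and 80.7 CPM, a ratio of 0.588. Of 16 adaptors and kinases, 0 were called in either direction in this comparison.

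In astrocyte-like cells 17 of 57 pathway genes were called higher and 3 lower for TBI+PBS against sham, 12 and 11 of 58 for TBI+IL-25 against TBI+PBS, and 20 and 10 of 59 for TBI+IL-25 against sham. The shares of all genes called in this class were 12.6% and 14.5%, 9.09% and 25.8%, and 18.6% and 35.9%. Socs3, a feedback inhibitor of cytokine signalling, was at 5.56, 295 and 820 CPM in sham, TBI+PBS and TBI+IL-25. Il1r1, the interleukin-1 receptor gene, whose product also signals through MyD88, was at 3.66, 22.7 and 37.0 CPM. Il1rap, its co-receptor gene, was 2.39 times as high in TBI+IL-25 as in TBI+PBS. Txnip, an NLRP3-binding protein gene, was at 64.1, 21.6 and 21.8 CPM. Of 9 transcription factor genes, 5 were called higher and 0 lower for TBI+PBS against sham, beside 12.6% and 14.5% of all genes. They were not alone in this. Inhibitors had 5 of 10 higher and 1 lower, cytokine and receptor genes 3 of 4 and 0, and caspases and pore formers 2 of 4 and 0. Adaptors and kinases had 1 of 15 higher, and other inflammasome sensors and partners 0 of 6. For TBI+IL-25 against sham the transcription factor genes had 5 higher and 3 lower.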

How the data were processed

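The authors deposited 3 matrices of whole-number UMI counts per gene and cell barcode (8939, 10643 and 14222 barcodes; 39536447, 58148289 and 61372408 UMIs in sham, TBI+PBS and TBI+IL-25), made by Cell Ranger 7.1.0 in sham and TBI+PBS and 7.2.0 in TBI+IL-25, per the file headers. Build GRCm39 is given, with Seurat 4.4.0, Cell Ranger 7.2.0 and bcl2fastq 5.0.1, per the submitters' processing notes. Filters and strand use are not given in the sources used here. The labels name the 10x 3′ kit and 8000 expected cells.

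From these counts, cells were kept if they held at least 500 UMIs and 300 genes with no more than 20% of UMIs mitochondrial. Doublet scores above 0.2 removed 211, 303 and 635 cells (2.36%, 2.85% and 4.46%). The automatic limit had marked 4 sham cells and was not used. Cells were clustered with scanpy 1.11.5 (2000 variable genes, 30 components, 15 neighbours, Leiden resolution 1) and named from 21 marker lists. UMIs were summed per class and library and divided by the class total (CPM). Intervals are exact Poisson for a level, exact conditional binomial for a ratio and Clopper-Pearson for a share. The floor behind a count of 0 is 3 counts. The ratio procedure was tested on simulated data. Cell shares were compared after thinning each cell to 2000 UMIs, which 4366, 4280 and 5088 microglia-like cells reached. Groups under 20 cells were left out. All 10 members are reported. Pathway genes are named by the highest and lowest interval bound of their ratio, 3 at each end (1 gene so named is not reported here), and members' closest genes by the correlation of log2(CPM + 1) among 15172 genes with at least 200 UMIs. Il1b values beside Nlrp3, the Spp1 cluster and the sparse classes were chosen after their values were seen. Members and lists were chosen with earlier results of these data known. Sums and intervals were computed with SciPy 1.17.1 and NumPy 2.4.6 in Python 3.11.15, and figures drawn with Matplotlib 3.10.9. The alternatives tried concern doublets, naming, size factors, cell weights, free RNA, cluster makeup and resolution.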

Additional observations from a re-analysis of the deposited data

Results flagged for a closer look

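Tlr4 was higher in astrocyte-like cells and lower in microglia-like cells of TBI+IL-25 than in the same classes of sham. The ratio of CPM was 2.36 in astrocyte-like cells and 0.607 in microglia-like cells, so the first was 3.89 times the second. It is listed because the sign differed between classes measured in the same pair of libraries. Within the P2ry12 cluster of microglia-like cells the Tlr4 ratio was 1.46 (1.08 to 1.94), not below 1. Within the 4 astrocyte-like clusters compared it was 1.16 to 4.63, with 0 intervals above 1. With median-of-ratios size factors the microglia-like difference was not called. With 1 library per group the difference was not tested.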

How the results depend on the processing

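Over the planned and added alternatives, 99 counts of called members stayed within 1.5 times of the reported count and 15 moved. Of the single-gene ratios, 415 stayed within the counting interval of the reported ratio, 92 moved outside it, and 4 of called members changed side. A change of side was counted only for called members. Members not called also crossed 1: the microglia-like Casp1 ratio of TBI+PBS to sham kept its side in 6 of 9 alternatives. Pycard in microglia-like cells (TBI+IL-25 against TBI+PBS) ranged from 1.65 to 1.82, Gsdmd from 0.626 to 0.698, and astrocyte-like Il18 from 0.566 to 0.687. With 1 cluster filled by all libraries in place of the class, microglia-like cells had 1 member higher (Cd14) for TBI+PBS against sham, and 1 higher (Pycard) and 1 lower (Gsdmd) for TBI+IL-25 against sham. Tlr2 then had a ratio of 0.888 to sham. The astrocyte-like counts became 0 higher and 1 lower (Cd14) for TBI+IL-25 against TBI+PBS and 0 and 0 against sham, with Cd14 at 0.987 and the Il18 calls lost at 0.667 and, between the injured libraries, 0.687. That cluster holds fewer cells, and Myd88 had under 50 UMIs there in each comparison of TBI+IL-25. The Myd88 ratio there was 0.417 (0.168 to 0.902) against TBI+PBS and 0.734 (0.278 to 1.76) against sham. The class gave 1.79 and 5.70. With median-of-ratios size factors the microglia-like lower counts were 0 for TBI+IL-25 against TBI+PBS and 1 (Gsdmd) against sham. The astrocyte-like count of lower members for TBI+PBS against sham was 1 with doublets kept, 1 with each cell named from its own marker score, 2 with cells weighed equally and 3 with free RNA subtracted. Subtracting free RNA gave 5 higher for TBI+IL-25 against TBI+PBS, and put astrocyte-like Gsdmd at 2.41 and, against sham, 1.70. With doublets kept, 2 astrocyte-like members were higher in TBI+IL-25 than in sham. Apart from the smaller cluster, the cause was not tested. No paired analysis was possible because each group has 1 library, and no replicate could be left out. Depth limits the astrocyte-like levels of Tlr4, Tlr7, Nlrp3, Casp1 and Gsdmd most, each at a few CPM.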
